A study of Triticum aestivum with 8 samples.

Results

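The regions described here are the accessible chromatin regions of homoeologous group 3 of bread wheat (Triticum aestivum), chromosomes 3A, 3B and 3D. They were chosen by position alone: each ATAC-seq peak whose deposited chromosome is 3A, 3B or 3D, in the peak lists of 4 tissues. There were 78802 such peaks among 496486 on all 21 chromosomes, which is 15.9% of the peaks on 15.6% of the length. Overlapping peaks of the 4 lists merged into 35211 regions on group 3, of 221805 in all. ATAC-seq marks accessible DNA through the cuts of a transposase. The material was the cultivar AiKang58, with 2 libraries and 1 deposited list for each tissue. Leaves, roots and shoot apices were taken from 2-week-old seedlings raised with a 16 h day at 22 °C and an 8 h night at 19 °C. Axillary buds of 1.0 to 2.0 cm were taken from 6-week-old plants after 30 days at 4 °C, so the bud list differs from the others in tissue, age and cold at once. No transgene or mutation is named in the labels, and the markers that define each tissue could not be checked in lists of positions.

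Bread wheat carries the chromosomes of 3 related ancestors side by side, and 3A, 3B and 3D descend from 1 ancestral chromosome. Homoeologues largely keep the same genes in the same order, while most of their length consists of transposable elements that differ between the subgenomes. In wheat the gene-rich chromatin lies toward the chromosome ends, recombination is concentrated there, and the interior around the centromere is rich in repeats. Accessible regions in plants are found mainly at promoters and at more distant regulatory elements. The sources used here do not give the genome build, so the genes at the positions below were not looked up.

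A peak list holds a start and an end for each peak and no height, count or value per library. None of the differences between tissues or chromosomes therefore has a replicate error, and no test was run. Intervals at 95% cover counting error over peaks only, and neighbouring peaks are not independent. The depth behind each list is unknown, so a stretch without peaks is not shown to be closed. Positions are counted from 1, and the end of the last peak on a chromosome in any list was taken as its length: 751 Mb for 3A, 831 Mb for 3B and 615 Mb for 3D.

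The 3 homoeologues held nearly equal numbers of peaks on unequal lengths. Leaf peaks numbered 6516 (3A), 6510 (3B) and 6594 (3D). Roots had 6160, 6380 and 6675 peaks on the same chromosomes. Shoot apices had 6876, 7018 and 6888, and axillary buds 6249, 6423 and 6513. The shares were most uneven in roots, where 3D held 34.7% of the root peaks of the group (95% Wilson interval 34.1 to 35.4) and 3A 32.1% (31.4 to 32.7). In the other lists the chromosomes of the group held between 32.6 and 33.9% each.

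Per length, 3D was the densest and 3B the sparsest chromosome in each list. Leaf density was 8.68 peaks per Mb on 3A, 7.84 on 3B and 10.7 on 3D. Root density was 8.21, 7.68 and 10.8, shoot apex density 9.16, 8.45 and 11.2, and bud density 8.32, 7.73 and 10.6 peaks per Mb. Over the 4 lists together 3D carried 1.26 times the density of 3A (95% interval 1.24 to 1.28) and 1.37 times that of 3B (1.34 to 1.39), and 3A carried 1.08 times that of 3B (1.07 to 1.10). Within single lists the ratio of 3D to 3A was lowest in shoot apices (1.22, interval 1.18 to 1.26) and highest in roots (1.32, 1.28 to 1.37). Those ratios lie inside the range of the other 6 homoeologous groups, which was 1.17 to 1.40 in shoot apices and 1.16 to 1.46 in roots for D to A. The order of 3D and 3A belongs to length as the scale: per protein-coding gene of a gene table, 3D had 0.973 times the peaks of 3A and 1.11 times those of 3B over the 4 lists. Roots alone kept 3D above 3A on that scale, at 1.02 times. The gene table belongs to an assembly of the cultivar Chinese Spring, not AiKang58. On each of the 3 chromosomes its genes extend beyond the last peak of the lists, so its positions were not used and the ratios per gene rest on its gene numbers alone.

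Along each chromosome the peaks formed a deep trough flanked by steep ends, at similar shares of the length on all 3 homoeologues. Each chromosome was divided into 50 bins of 2% of its length. The emptiest bin of 3A lay at 32 to 34% of the length in each list, where the density per Mb was 1.73 for leaves, 0.866 for roots, 1.27 for shoot apices and 0.599 for buds. On 3B the lowest bin lay at 34 to 36% for leaves (2.47), roots (0.782) and shoot apices (1.44), and at 32 to 34% for buds (1.02). On 3D it was at 30 to 32% in leaves (3.09, tied with the bin at 36 to 38%) and shoot apices (2.44, tied with the next bin) and at 32 to 34% in roots (1.46) and buds (2.03).

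The densest bins were the outermost ones. On 3D the first 2% held 32.3 leaf, 36.6 root and 35.2 shoot apex peaks per Mb, the highest of that chromosome in those lists, and buds reached 46.9 in the last 2%. The last bin was also the densest in roots and buds on 3A (27.0 and 32.6) and on 3B (24.1 and 27.0). In leaves and shoot apices the densest bin of 3A and 3B was the second, with 21.8 and 24.4 peaks per Mb on 3A and 19.6 and 23.1 on 3B. From the densest to the emptiest bin the contrast was 7.95 times in leaves on 3B at the least and 54.4 times in buds on 3A at the most. At the start of the chromosomes the density dropped where the second bin ends, at 4% of the length. The second bin held 1.80 to 1.89 times the density of the next on 3A, 2.31 to 2.90 times on 3B and 2.74 to 3.05 times on 3D.

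**Figure D1:**
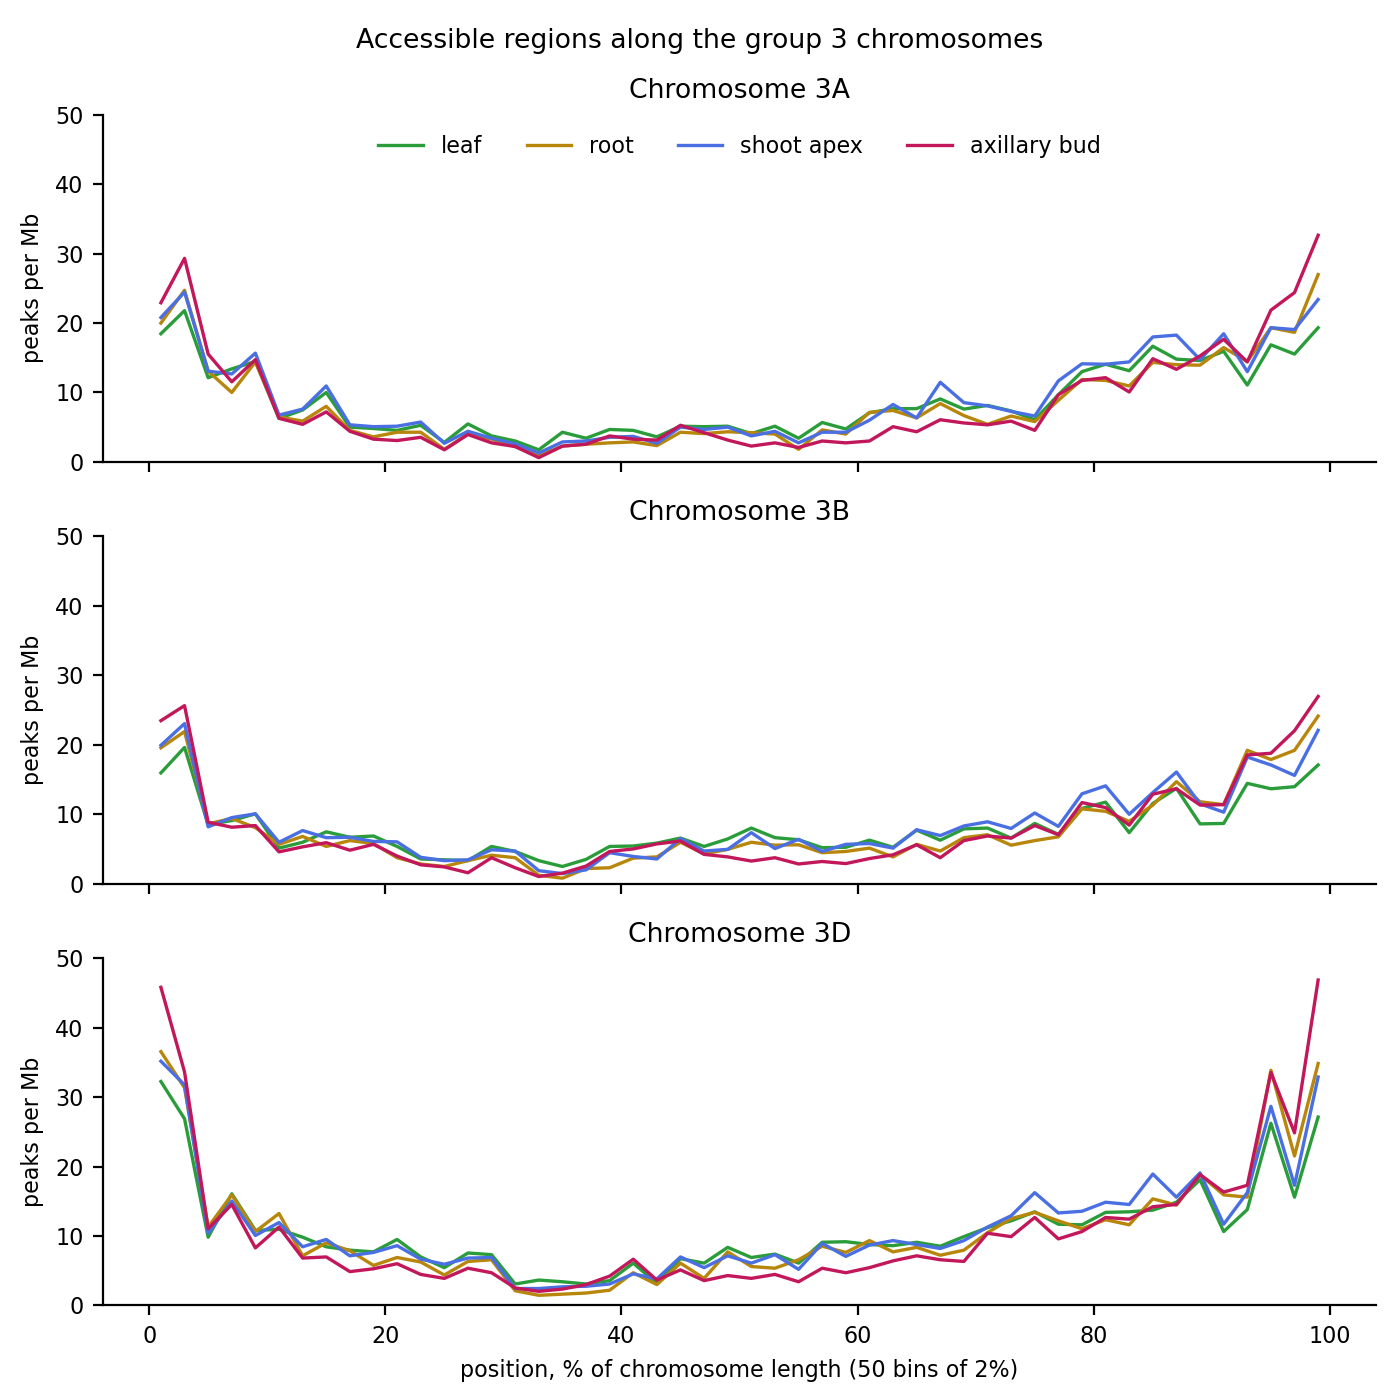
Peak density in 50 bins of 2% of the length of 3A, 3B and 3D (x axis, % of chromosome length from the start; y axis, peaks per Mb), 1 line per tissue list. All lines are lowest between 30 and 38% of the length and highest in the outer 4% at an end, where buds reach 46.9 peaks per Mb on 3D.

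The shape of the profile was shared between homoeologues. Across the 50 bins, Pearson's r between 2 homoeologues was 0.857 to 0.954 over the 12 pairs of chromosomes within a list. Bins of 1 list share their libraries and the fall from the ends to the middle, so these values describe the profiles only. Without the outer 4% at each end, an alternative chosen after seeing the data, r was 0.766 to 0.896. Bin by bin, 3D was the densest homoeologue in all 4 lists in 27 of the 50 bins, 3A in 4 and 3B in 1. In the other 18 bins the order differed between lists. The bins led by 3A lay at 4 to 6%, 8 to 10%, 78 to 80% and 90 to 92% of the length. At 90 to 92%, 3A had 15.9 leaf and 18.4 shoot apex peaks per Mb, against 10.6 and 11.7 on 3D and 8.67 and 10.3 on 3B. Its lead over 3D there was smaller in roots (16.5 and 15.9) and buds (17.6 and 16.3). The bin led by 3B lay at 92 to 94%, with 19.2 root peaks per Mb against 14.5 on 3A and 15.6 on 3D.

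The order of 3A and 3B turned between the arms and the interior. For this comparison each chromosome was divided at 4, 20, 80 and 96% of its length, a division chosen after the profiles were seen. Between 80 and 96% of the length 3A carried 14.6 leaf peaks per Mb against 11.2 on 3B, and between 4 and 20% it carried 9.18 against 7.46. In the interior, between 20 and 80%, the densities were 5.61 on 3A and 5.86 on 3B. Over the 4 lists the density ratio of 3A to 3B was 1.25 at 4 to 20% (95% interval 1.196 to 1.305), 1.17 at 80 to 96% (1.13 to 1.21) and 0.959 in the interior (0.932 to 0.987). By list the interior ratio was 0.958 for leaves, 1.01 for roots, 0.956 for shoot apices and 0.910 for buds, and the interval lay wholly below 1 only in buds (0.855 to 0.969). In the other homoeologous groups A was the sparser chromosome of the interior in 4 and the denser in 2, over the 4 lists together.

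Chromosome 3D led 3A most in the first 4% of the length and in the interior. The ratio of 3D to 3A over the 4 lists was 1.4995 in the first 4% (1.43 to 1.58), 1.10 at 4 to 20% (1.05 to 1.14), 1.39 in the interior (1.35 to 1.43), 1.12 at 80 to 96% (1.09 to 1.16) and 1.23 in the last 4% (1.17 to 1.30). At 4 to 20% this ratio was below that of each of the other groups (1.17 to 1.36). In leaves alone it was not: there it was 1.11, within their range of 1.108 to 1.24. The spacing of merged regions was split only into the outer 20% and the interior, so it does not show the first 4% apart. In both parts 3D had the shortest spacing, while 3A and 3B changed order. Median distances and densities are different measures, so their ratios need not match. The median distance between neighbouring regions was 3.79 kb on 3A, 4.73 kb on 3B and 3.46 kb on 3D in the outer 20% at each end. In the interior it was 12.03, 9.09 and 6.51 kb.

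Tissues differed along the chromosomes in a way that recurred on all 3 homoeologues. Peaks with a midpoint in the outer 20% of the length at either end, called distal, made up 57.9% of leaf peaks of the group (95% interval 57.2 to 58.6), 61.4% of shoot apex peaks (60.7 to 62.04), 64.5% of root peaks (63.8 to 65.2) and 68.5% of bud peaks (67.8 to 69.1). On single chromosomes the leaf share was 61.2% on 3A, 55.1% on 3B and 57.5% on 3D, and the bud share 71.4, 66.1 and 68.1%. Chromosome 3A had the highest distal share in each list. Among the 7 homoeologous groups, group 3 ranked 5 of 7 in distal share in each list. The order of the tissues was not particular to group 3: groups 1, 2, 4, 6 and 7 had the same. In group 5 shoot apices (54.3%) and roots (54.2%) changed places.

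To compare lists of different length, peak numbers in a bin were divided by the size of the list. Buds exceeded leaves on all 3 homoeologues in 9 of the 50 bins, all in the outer 20%: 3 at the start and 6 at the end of the chromosomes. Leaves exceeded buds on all 3 in 29 bins, of which 23 lay in the interior. The bud to leaf ratio followed a similar course on the homoeologues (Pearson's r 0.805 to 0.857 over 50 bins that share 2 lists, a description only). For roots against shoot apices r was lower, at 0.383 to 0.494.

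The bud to leaf ratio was highest toward the end of the chromosomes. From 90 to 100% of the length it was 1.42 on 3A (95% interval 1.32 to 1.53), 1.45 on 3B (1.34 to 1.57) and 1.498 on 3D (1.39 to 1.61). Bud peaks there numbered 1665 on 3A, 1623 on 3B and 1710 on 3D, and leaf peaks 1181, 1127 and 1150. Its lowest bin lay at 32 to 34% on 3A (0.349, 0.163 to 0.744, from 9 bud and 26 leaf peaks) and on 3B (0.311, 0.181 to 0.536, from 17 and 55). On 3D the ratio in that bin was 0.560 (0.343 to 0.913, from 25 and 45). The lowest bin of 3D lay at 58 to 60% instead (58 bud and 113 leaf peaks), nearly level with that at 48 to 50% (53 and 103).

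Between these extremes the interior was not uniform. From 38 to 46% of the length buds and leaves were close, with ratios of 0.865 on 3A (0.726 to 1.03), 0.934 on 3B (0.809 to 1.08) and 1.01 on 3D (0.846 to 1.21). From 48 to 62% the ratio was 0.542 on 3A (0.469 to 0.626), 0.534 on 3B (0.472 to 0.604) and 0.570 on 3D (0.504 to 0.646). These bands were chosen after the profile was seen. Against shoot apices, the buds showed ratios at 38 to 46% of 1.12 on 3A (0.931 to 1.35), 1.26 on 3B (1.08 to 1.47) and 1.15 on 3D (0.961 to 1.38). Only the interval of 3B lay above 1. At 48 to 62% the ratios of buds to shoot apices were 0.634 to 0.677. Roots did not follow the buds there: their ratio to leaves was 0.701 to 0.842 at 38 to 46% and 0.848 to 0.938 at 48 to 62%.

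**Figure D2:**
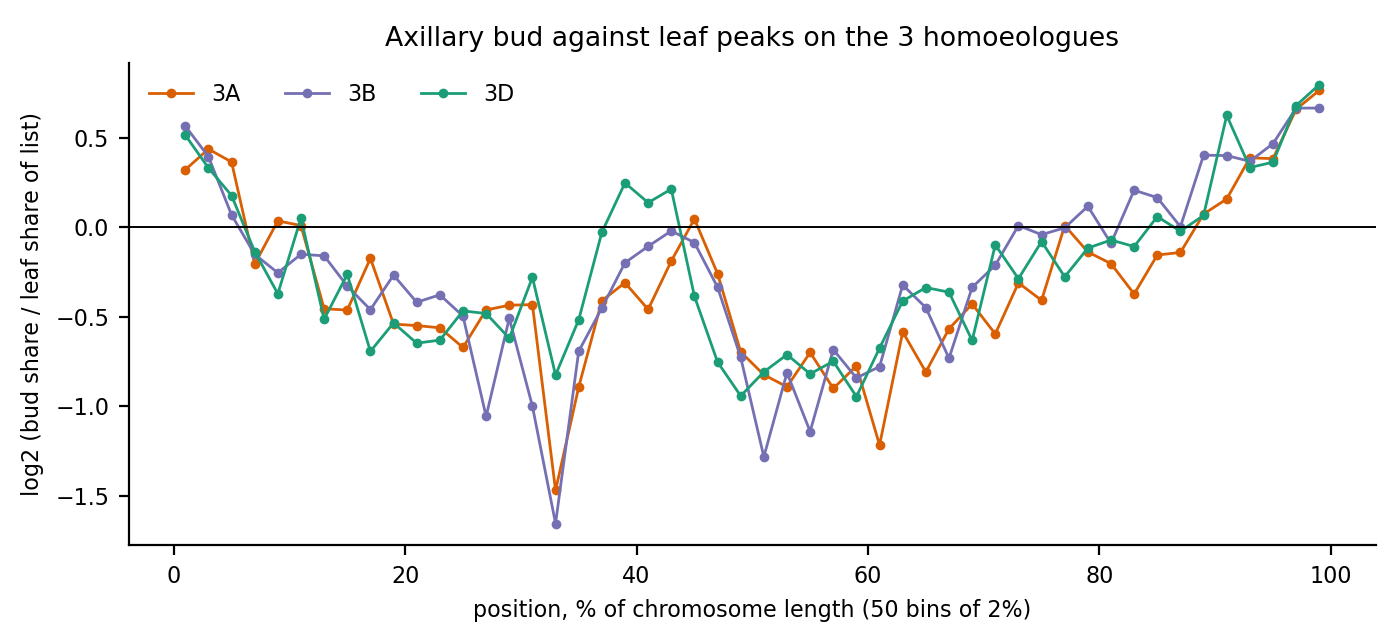
Log2 ratio of axillary bud to leaf peaks, each as a share of its list with 0.5 added to each count, in 50 bins of 2% of the length (x axis) on 3A, 3B and 3D (lines). Values are above 0 at both ends and dip at 32 to 34% (deepest on 3A and 3B) and at 48 to 62%. At 38 to 46% they are higher than in these dips but uneven, with single bins on either side of 0 on 3A and 3D and below 0 on 3B.

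The excess of buds at the ends was similar to that of the other homoeologous groups at the start and high among them at the end. In the first 4% the bud to leaf ratio of group 3 was 1.35 (1.27 to 1.43), within the range of 1.22 to 1.66 of the other groups. In the last 4% it was 1.64 (1.54 to 1.75), second of the 7, with the others at 1.37 to 1.67. The ratio of buds to shoot apices in the last 4% was 1.47 (1.38 to 1.56), above the other groups (1.28 to 1.44), and in the first 4% it was 1.26 (1.19 to 1.33), below them (1.27 to 1.39). Roots had 1.12 times the leaf value at 80 to 96% of the length (1.07 to 1.16), where the other groups had 0.953 to 1.10. In these 3 cases the interval of group 3 overlaps the range of the other groups.

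The sets of tissues in which a region was found followed the whole genome closely, with 3A apart from its homoeologues. A region counted as present in a tissue when a peak of that list overlapped it by at least 1 bp. On group 3, 6931 regions (19.7%, 19.3 to 20.1) were found in all 4 tissues, where all 21 chromosomes had 19.7%. Regions of a single tissue numbered 16008 (45.5%, 44.9 to 45.98), against 45.3% on all chromosomes. There were 4965 regions in buds only (14.1%, background 14.3%) and 4298 in roots only (12.2%, background 11.9%). Leaf-only regions numbered 3619 (10.3%, background 10.1%) and shoot-apex-only regions 3126 (8.88%, background 8.99%). These shares lie close to the background, and group 3 as a whole is not set apart by them.

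Between the homoeologues, 3A had more shared and fewer single-tissue regions. Regions of all 4 tissues made up 20.9% on 3A (20.2 to 21.7), 19.2% on 3B (18.5 to 19.9) and 19.0% on 3D (18.3 to 19.7). Single-tissue regions made up 43.6% on 3A (42.7 to 44.5), 46.2% on 3B (45.3 to 47.1) and 46.5% on 3D (45.6 to 47.3). The order for regions of all 4 tissues depends on the overlap rule. When only tissues covering 50% of the region were counted, they numbered 867 of 11237 on 3A, 930 of 11985 on 3B and 815 of 11989 on 3D. As shares, 3A and 3B were then close and 3D was lower. The single-tissue share of 3A was the lowest of the 21 chromosomes, but others, such as 1A (43.8%) and 4D (43.9%), lay within its interval. The share of 3A was 2.85 percentage points below that of 3D, a distance beyond that in each of the other groups, where A minus D ranged from -1.93 to 1.41 points. Root-only regions contributed most to it, with 11.1% on 3A (10.5 to 11.7), 12.5% on 3B (11.9 to 13.1) and 13.0% on 3D (12.4 to 13.6). For root-only regions alone, A minus D was -1.86 points, within the range of the other groups (-1.89 to 2.45). Bud-only regions followed no such order, with 13.9, 13.6 and 14.7%.

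**Figure D3:**
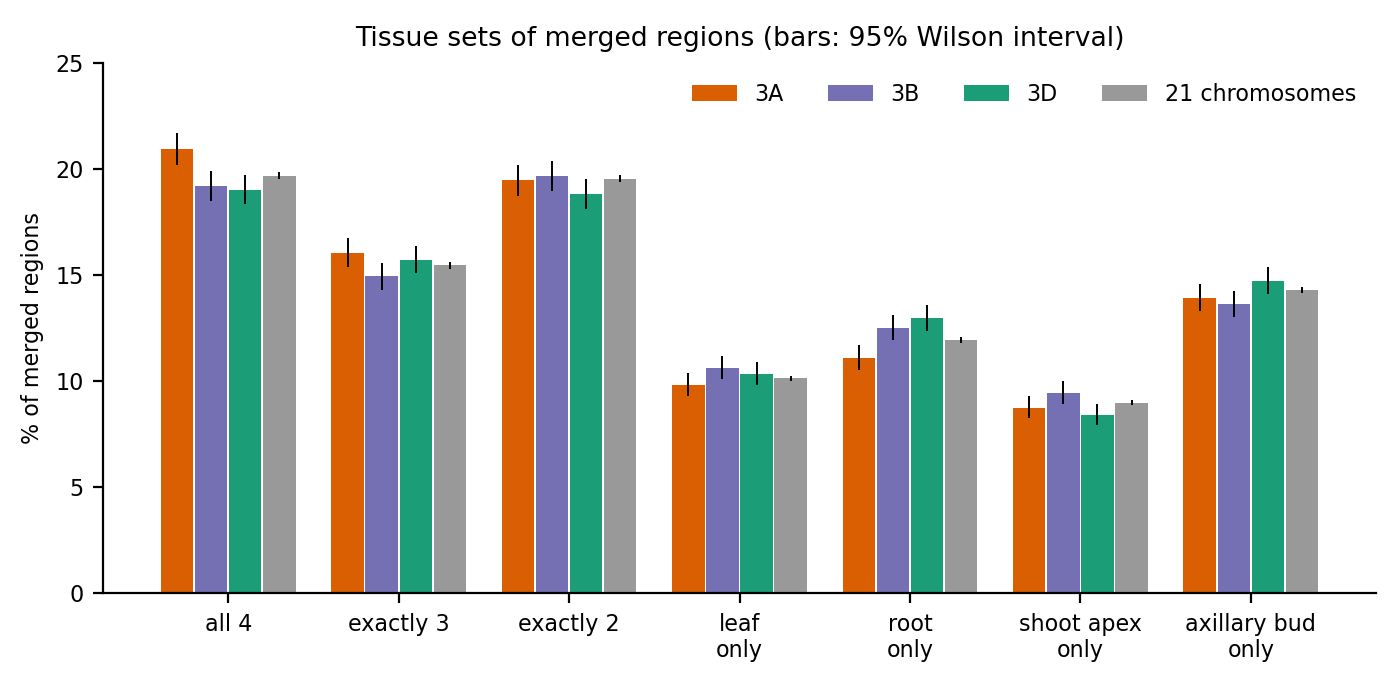
Share of merged regions (y axis, %) found in all 4 tissues, in exactly 3, in exactly 2 and in each single tissue, for 3A, 3B, 3D and all 21 chromosomes (bars), with 95% Wilson intervals as error bars. The 3A bar is the highest of the homoeologues for all 4 tissues (20.9%) and the lowest for roots only (11.1%).

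The single-tissue regions lay in different parts of the chromosomes. Of bud-only regions 74.0% were distal (72.7 to 75.2), of root-only regions 69.8% (68.4 to 71.2), of shoot-apex-only regions 58.6% (56.9 to 60.3) and of leaf-only regions 49.5% (47.9 to 51.2). On all 21 chromosomes the shares were 72.6% for bud-only, 66.5% for root-only, 60.3% for shoot-apex-only and 50.7% for leaf-only regions. Of all merged regions 63.1% were distal on group 3 and 62.7% on all 21 chromosomes. Leaf-only regions made up 14.1% of the interior regions of the group (13.5 to 14.7) and 8.07% of the distal ones (7.72 to 8.43). Bud-only regions made up 9.95% of interior (9.45 to 10.5) and 16.5% of distal regions (16.0 to 17.0). Regions of all 4 tissues were as frequent in the interior (19.9%, 19.2 to 20.6) as in the distal parts (19.6%, 19.1 to 20.1) within counting error.

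Overlap between pairs of lists on group 3 also followed the whole genome. Of leaf peaks 68.1% overlapped a shoot apex peak, and of shoot apex peaks 62.9% overlapped a leaf peak. Of root peaks 51.1% overlapped a bud peak, and of bud peaks 50.5% a root peak. Over the 12 shares, 2 for each pair of lists, group 3 differed from all 21 chromosomes by -0.851 to 0.948 percentage points. Homoeologues differed by more than that in some shares: 61.4% of root peaks overlapped a leaf peak on 3A (60.2 to 62.6), and 56.97% on 3B (55.8 to 58.2).

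Peak widths differed more between tissues than between homoeologues. The share of widths that are a multiple of 25 bp also differed between lists, and its bearing on the widths was not tested. Median widths on 3A, 3B and 3D were 500, 488.5 and 500 bp in leaves and 500, 475 and 500 bp in roots. In shoot apices they were 543, 525 and 550 bp, and in buds 550, 525 and 550 bp. Peaks of at least 2 kb were most frequent on 3D in each list, with 4.16% in leaves (3.70 to 4.66), 3.88% in roots (3.44 to 4.37), 5.91% in shoot apices (5.38 to 6.49) and 5.50% in buds (4.97 to 6.08). On 3A these shares were 3.31, 3.07, 5.18 and 5.07%, and on 3B 3.55, 2.63, 4.93 and 4.73%. The intervals of 3D and 3B overlap in leaves, shoot apices and buds but not in roots. In leaves the D chromosome also came first in groups 1 (4.29%), 4 (4.65%), 5 (4.49%), 6 (4.31%) and 7 (3.62%). In group 2 it did not, with 4.11% on 2D and 4.26% on 2A. With more and wider peaks per length, 0.876% of 3D was covered by shoot apex peaks, against 0.696% of 3A and 0.628% of 3B. Merged regions of all 4 tissues had a median width of 1413.5 bp on 3D, 1275 bp on 3A and 1298.5 bp on 3B, whereas single-tissue regions had a median of 375 bp on each. Merging widens shared regions by construction.

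The widest shared region of each chromosome lay near an end. On 3A it ran from 716250510 to 716263847 (13338 bp, at 95.4% of the length), on 3B from 24259271 to 24270695 (11425 bp, at 2.92%) and on 3D from 7285503 to 7297292 (11790 bp, at 1.18%). Single-tissue regions reached less than that. The widest root-only regions had 5950 bp on 3A (717651058 to 717657007), 6375 bp on 3B (785546795 to 785553169) and 4125 bp on 3D (546653192 to 546657316). The widest leaf-only regions had 3244 bp on 3A (100885225 to 100888468), 5136 bp on 3B (730230636 to 730235771) and 4350 bp on 3D (329443743 to 329448092). For buds the values were 5025 bp on 3A (720844491 to 720849515), 2543 bp on 3B (809132387 to 809134929) and 2605 bp on 3D (480966377 to 480968981). Shoot-apex-only regions reached 2375 bp on 3A (371623715 to 371626089), 3925 bp on 3B (731484553 to 731488477) and 2400 bp on 3D (545340301 to 545342700).

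Long stretches without a peak took the largest share of the length on 3A and the smallest on 3D, while 3B had more of them than 3A in 3 lists. Gaps of at least 1 Mb between neighbouring peaks numbered 85 on 3A, 87 on 3B and 49 on 3D in leaves, and 99, 106 and 65 in roots. Shoot apices had 102, 109 and 62, and buds 126, 119 and 74. In buds these gaps added up to 26.6% of the length of 3A, 22.6% of 3B and 16.7% of 3D, and in leaves to 17.2, 15.6 and 11.2%. The shares were 21.03, 20.005 and 15.9% in roots and 20.8, 20.3 and 13.8% in shoot apices, where the summed length was greater on 3B (166 and 169 Mb) than on 3A (158 and 156 Mb). Stretches with no peak in any of the 4 lists numbered 63 on 3A, 48 on 3B and 30 on 3D and covered 12.1, 9.03 and 6.26% of the length. Their median position was at 33.9, 34.8 and 36.1% of the length, in the trough of the density profile. The gaps of the 4 lists together covered 9.30% of group 3, and 6.22 to 12.8% of the other groups. The order of the homoeologues recurred in part elsewhere. In leaves the D chromosome also had the smallest share in groups 1, 2, 5 and 6, but not in 4 and 7. The A chromosome had the largest in groups 2, 4, 5, 6 and 7, but not in 1, where 1B had 32.9%.

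The longest empty stretch of 3A was nearly the same in 3 lists. It ran from 252192630 to 256662560 for leaves (4.47 Mb), from 251696234 to 256729011 for roots (5.03 Mb) and from 251346726 to 256869764 for buds (5.52 Mb), at 33.5 to 34.2% of the length. Within the bud gap there were 7 leaf, 3 root and 4 shoot apex peaks, all outside the stretch from 252192643 to 256662560 (4.47 Mb), where no list had a peak. On 3B the longest gaps of roots (513804596 to 519062747, 5.26 Mb), shoot apices (514650544 to 519051453, 4.40 Mb) and buds (514650186 to 518937088, 4.29 Mb) shared a stretch of 3.77 Mb with no peak in any list (515162178 to 518936691), at 62.01 to 62.46% of the length and well away from the trough. In leaves the longest gap of 3B lay in the trough, from 289593053 to 293694778 (4.10 Mb). It held 4 bud peaks, 1 root peak and 1 shoot apex peak.

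On 3D the longest gap of each list lay elsewhere, and the other lists had peaks inside it. The root list had none from 192144071 to 197381103 (5.24 Mb), where leaves had 13 peaks, shoot apices 6 and buds 5. Leaves had none from 241669666 to 244228627 (2.56 Mb), where roots had 3 peaks and shoot apices and buds 4 each. The gap of shoot apices (257222029 to 260337864, 3.12 Mb) held 5 bud, 2 leaf and 2 root peaks, and that of buds (202771033 to 205494172, 2.72 Mb) held 3 leaf peaks, 2 root peaks and 1 shoot apex peak. The longest stretch of 3D with no peak in any list had 1.81 Mb (223712253 to 225521860).

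One gap lay inside the densest part of a chromosome. On 3A no list had a peak from 3092471 to 6662987 (3.57 Mb, at 0.41 to 0.89% of the length), although the first 4% of 3A carried 20.1 to 26.1 peaks per Mb. In shoot apices, whose longest gap on 3A this was, the gap ran from 1934812 to 6673122 (4.74 Mb). The longer stretch held 3 leaf peaks, 2 root peaks and 4 bud peaks. Among the 21 chromosomes this was the longest gap of the merged lists within the outer 4% at either end. The next had 1.45 Mb, on 1D. On 3B and 3D the longest such gaps had 0.798 and 0.597 Mb. This gap was singled out after its values were seen. Unassembled sequence and sequence to which reads cannot be mapped uniquely would also leave a list empty, which was not tested.

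**Figure D4:**
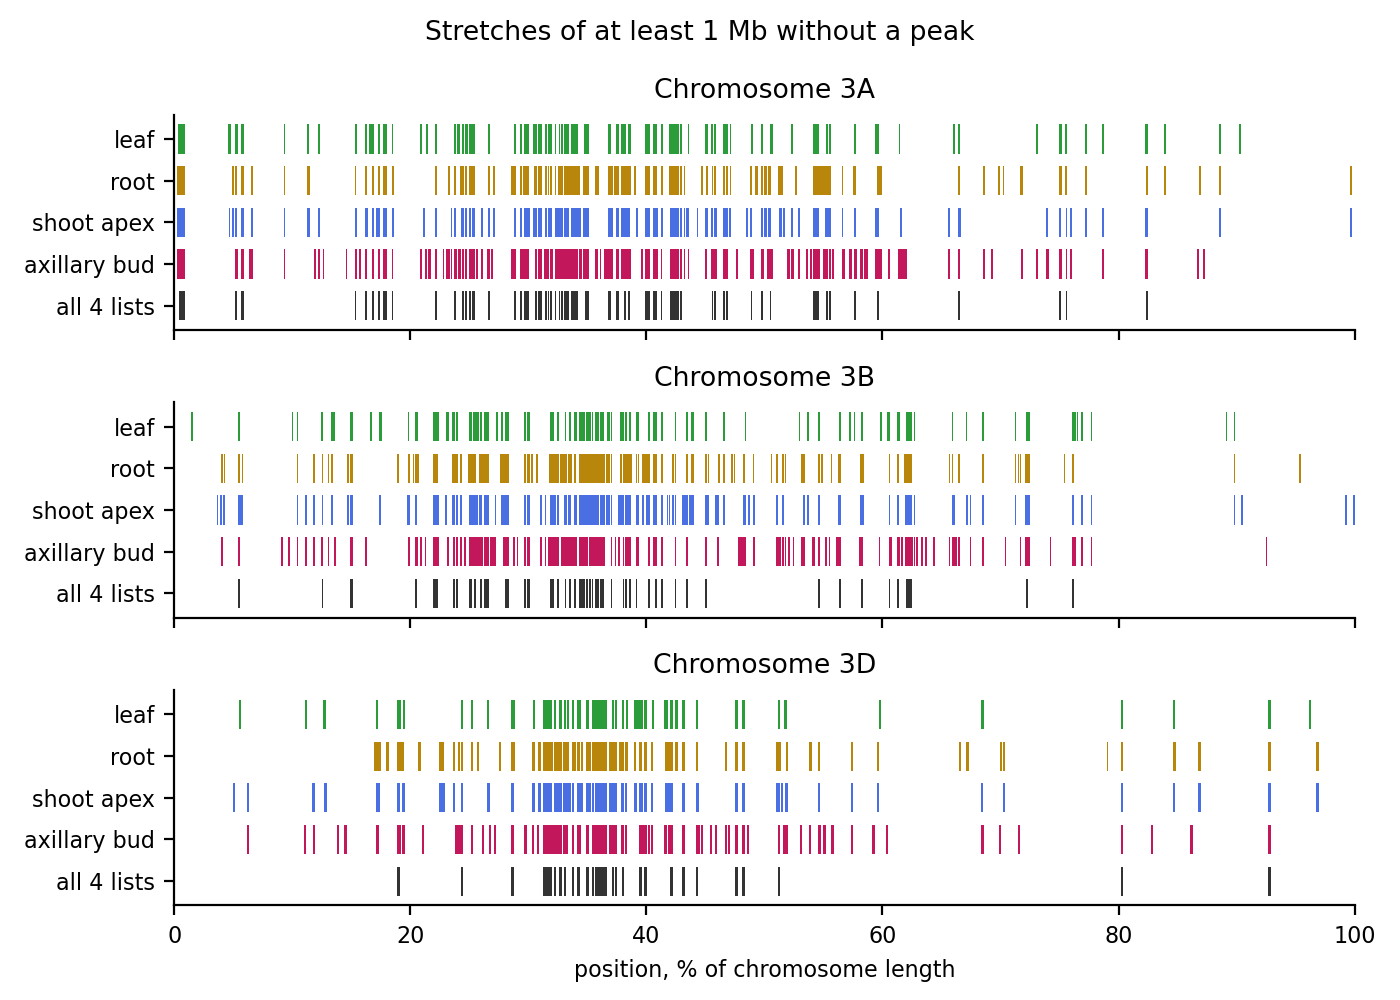
Stretches of at least 1 Mb between neighbouring peaks (bars, drawn to scale) along 3A, 3B and 3D (x axis, % of chromosome length), for each of the 4 lists and for the 4 lists together. In the 4 lists together the median position is 33.9% on 3A, 34.8% on 3B and 36.1% on 3D, and 3A has a gap near its very start, at 0.41 to 0.89%.

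Blocks of a single tissue were defined as 5 or more neighbouring merged regions, each found in the same single tissue. Group 3 held 96 such runs with 563 regions, 1.60% of its regions, where all 21 chromosomes had 1.39%. Roots gave 51 runs, leaves 26, buds 15 and shoot apices 4. Of the 98 leaf runs on all 21 chromosomes 26 lay on group 3, and the other groups had 2 to 16 each. For roots the number was 51 of 279 (other groups 21 to 56), for buds 15 of 109 (8 to 22) and for shoot apices 4 of 21 (1 to 8). The other groups held 26875 to 37796 merged regions each. Regions in leaf runs made up 0.452% of the regions of group 3 and 0.260% of those on all 21 chromosomes. For roots these shares were 0.843 and 0.772%, for buds 0.241 and 0.312% and for shoot apices 0.0625 and 0.0487%.

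Leaf runs were short in span and lay mostly in the interior, whereas root and bud runs were more spread out and mostly distal. The median span was 17.1 kb for leaf runs, 86.0 kb for root runs and 56.8 kb for bud runs. Runs within 50 kb numbered 21 of 26 in leaves, 18 of 51 in roots and 7 of 15 in buds, a limit chosen after seeing the data. The other groups, of unlike size, had 2 to 11 leaf runs of this kind, and all 21 chromosomes had 68. In the outer 20% at either end lay 8 of the 26 leaf runs, 38 of the 51 root runs and 15 of the 15 bud runs. By chromosome there were 6 leaf runs on 3A, 10 on 3B and 10 on 3D, and 15, 19 and 17 root runs.

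The longest leaf runs were compact clusters. On 3D, 11 leaf-only regions followed each other from 541602989 to 541626862, in 23.9 kb of which 39.8% was covered by leaf peaks. On 3A there were 10 from 674256951 to 674280522 (23.6 kb, 31.6% covered), and on 3B there were 9 from 284387477 to 284423213 (35.7 kb, 22.6% covered). The 3B cluster lay in the trough, at 34.2% of the length, and the others at 88.0 and 89.8%.

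The longest root runs were loose. On 3D, 11 root-only regions lay between 583179237 and 583288835 (110 kb, 6.62% covered) and 9 between 610600064 and 610698298 (98.2 kb). On 3B, 9 lay between 815461823 and 815654034 (192 kb, 1.82% covered). Bud runs included both kinds. On 3A, 8 bud-only regions lay in 16.7 kb from 720464728 to 720481392 (39.1% covered), and 8 others in 325 kb from 741280859 to 741606317 (1.19% covered). The next on 3D held 7 regions from 554268235 to 554391726. Shoot apex runs held 6 regions from 620758862 to 620765086 on 3A (6.23 kb) and 6 from 116153716 to 117505804 on 3D. The others held 5 regions from 80224990 to 80491178 on 3A and 5 from 731483578 to 731525570 on 3B. The 3D shoot apex run spans a stretch of 1.09 Mb without a peak in any list, so a run can bridge empty sequence.

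**Figure D5:**
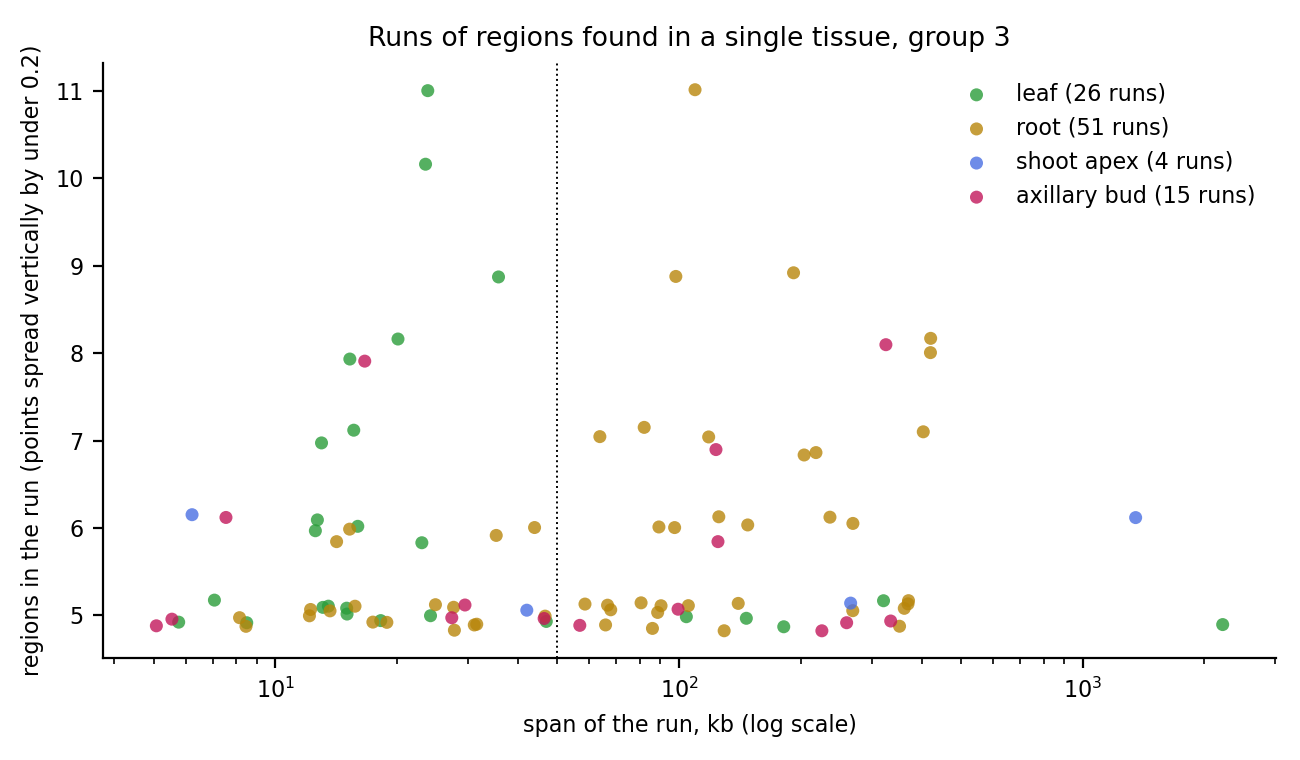
The 96 runs of 5 or more neighbouring regions found in the same single tissue on 3A, 3B and 3D, by span (x axis, kb, log scale) and number of regions (y axis), coloured by tissue; the points are spread vertically by under 0.2 and the dotted line marks 50 kb. Leaf runs lie mostly left of the line (21 of 26) and root runs mostly right of it (33 of 51).

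Windows of 1 Mb gave a coarser view of the same blocks. A window was called led by a tissue when that list had at least 10 peaks in it and, after scaling to list size, at least 2 times the next list. Of 2137 windows of group 3 with a peak in some list 29 were led (1.36%), against 1.13% on all 21 chromosomes. Leaves led 12, roots 10, buds 5 and shoot apices 2. Of 13700 windows on all 21 chromosomes roots led most, with 66, followed by leaves with 56, buds with 28 and shoot apices with 5.

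Bud-led windows were near the ends of the chromosomes, except for 1 in the interior. On 3B from 797000001 to 798000000 buds had 15 peaks and each other list 4. On 3D from 605000001 to 606000000 buds had 30 peaks, where leaves had 10, roots 8 and shoot apices 10. The interior window was on 3D from 236000001 to 237000000, with 10 bud peaks against 3 leaf peaks, 1 root peak and 4 shoot apex peaks. A window on 3A, 720000001 to 721000000, contains the compact bud run and the widest bud-only region of 3A. It held 31 bud, 4 leaf, 15 root and 6 shoot apex peaks. These bud-led windows of 3A and 3B lie at nearly the same share of the length, 95.97 and 95.99%. The matching stretch of 3D (590286908 to 591106750) was not led by buds: roots had 46 peaks there, leaves 21, shoot apices 21 and buds 25. The 3A window and this match were singled out after the values were seen, and equal shares of length need not hold the same genes.

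The windows most led by leaves lay at 4.27, 31.9 and 64.7% of the length. On 3B, 35000001 to 36000000, leaves had 12 peaks, roots 2, shoot apices 1 and buds 3. On 3A, 485000001 to 486000000, leaves had 15, roots and shoot apices 4 each and buds 3. On 3D from 196000001 to 197000000, inside the long root gap, leaves had 10 peaks, roots 0, shoot apices 3 and buds 1.

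The windows most led by roots reached 2.45 to 2.65 times the next list, and those most led by leaves 3.57 to 3.97 times. On 3B, 56000001 to 57000000, there were 12 root, 2 leaf, 5 shoot apex and 3 bud peaks. On 3D, 341000001 to 342000000, there were 12 root, 5 leaf, 3 shoot apex peaks and 1 bud peak. On 3A, 702000001 to 703000000, there were 12 root, 4 leaf, 3 shoot apex and 5 bud peaks. The windows led by shoot apices lay on 3B from 418000001 to 419000000 (14 shoot apex, 4 leaf, 6 root and 4 bud peaks) and on 3A from 503000001 to 504000000 (11, 5, 3 and 3).

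Windows led by a tissue were seldom led again at the same share of the length on a homoeologue. For the 29 led windows, the matching stretches of the other homoeologues gave 10 comparisons for bud-led, 24 for leaf-led, 20 for root-led and 4 for shoot-apex-led windows. The same tissue had the highest scaled number in 5, 10, 8 and 2 of them. It reached 2 times the next list in 1, 4, 0 and 0 of them, with no minimum number of peaks. The leaf counts of 10 and 4 each include a stretch of 3D without a peak in any list (210398534 to 211139373), where 0 tied with 0. In the other leaf stretches at 2 times the next list, leaves had only 5, 3 and 1 peaks. For the runs of single-tissue regions the count differed by tissue. A run of the same tissue lay within 1 percentage point of the length on another homoeologue for 37 of the 51 root runs, 9 of the 15 bud runs, 5 of the 26 leaf runs and 0 of the 4 shoot apex runs. A tissue with more runs, or with runs crowded at the ends, matches more often by position alone. The number of such matches was not worked out, so these counts do not compare the tissues.

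The windows with most peaks were shared between tissues rather than led by 1. On 3A leaves (60) and shoot apices (78) had their highest number from 12000001 to 13000000, where roots had 64 and buds 80. The bud maximum on 3A lay from 22000001 to 23000000 (82 peaks), and the root maximum from 746000001 to 747000000 (65). On 3D shoot apices (66) and buds (104) peaked from 613000001 to 614000000, where leaves had 54 and roots 65. On 3D leaves peaked from 7000001 to 8000000 (64) and roots from 611000001 to 612000000 (67). On 3B the maxima were lower: 44 leaf peaks from 21000001 to 22000000, 53 root peaks from 822000001 to 823000000, 53 shoot apex peaks from 24000001 to 25000000 and 69 bud peaks from 20000001 to 21000000. The median window held 5 to 9 peaks, depending on chromosome and list. By window centre, the root maximum lay at 99.4, 99.0 and 99.4% of the length of 3A, 3B and 3D, and the leaf maximum at 1.67, 2.59 and 1.22%.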

How the data were processed

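ATAC-seq peaks were compared in 4 tissues, with 2 libraries and 1 peak list per tissue. The authors deposited positions only. Trimmomatic 0.36, Bowtie2, MACS2 and bedtools were used, per the submitters' processing notes. The sources used here give neither the build nor the peak threshold, nor how replicates were combined. The narrowest deposited peak had 201 bp, and on group 3 the width was a multiple of 25 bp for 81.9 to 95.7% of the peaks of a chromosome and list. This share differed by list: 81.9 to 82.4% in buds, 88.5 to 89.5% in leaves, 95.5 to 95.7% in roots and 95.3 to 95.6% in shoot apices.

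Lists were checked to be free of repeats and overlaps. Starts were taken as counted from 0 and printed from 1. Counting, merging, gaps, runs and windows were computed with pandas 2.3.3 and numpy 2.4.6 and checked on simulated intervals. Shares carry Wilson intervals (scipy 1.17.1). Ratios of counts carry 95% intervals from the Poisson error on the log scale.

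The chromosomes and the measures were chosen with earlier results of these data known. Named regions follow a fixed rule: per chromosome the widest region of all 4 tissues and of each single tissue, the longest gaps, the fullest windows and the extreme bins, and over the group the 3 longest runs (ties included) and 3 most led windows of each tissue. Other choices are marked as made after the values were seen. The RefSeq gene table for IWGSC CS RefSeq v2.1 gave the number of protein-coding genes per chromosome (4891 on 3A, 5683 on 3B, 5195 on 3D) and nothing else.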

Additional observations from a re-analysis of the deposited data

How the results depend on the processing

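No paired analysis was possible because each tissue has a single list without values by replicate. Omitting a replicate was therefore not possible either. Depth is unknown and limits comparisons of list sizes. Per protein-coding gene the ratio of 3D to 3A over the 4 lists turned to 0.973 (leaves 0.953, shoot apices 0.943, buds 0.981, but roots 1.02), while 3D to 3B was 1.11 and 3A to 3B 1.14. Per base covered the 3 ratios were 1.30, 1.43 and 1.10. With only the wider peaks kept (507 bp or more, the median), 3D to 3B was 1.41 and 3A to 3B 1.11. In the outer 10% the distal shares were 35.1% (leaves), 42.3% (roots), 37.7% (shoot apices) and 47.1% (buds). Among the wider peaks they were 58.5% (leaves), 66.1% (roots), 62.1% (shoot apices) and 69.9% (buds), in the same order of tissues.

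When only tissues covering 50% of the region were counted, regions of all 4 tissues numbered 867 on 3A, 930 on 3B and 815 on 3D, so 3A no longer had most. As shares of the regions of each chromosome, 3A and 3B were close and 3D was lower. The total of single-tissue regions stayed within 1.5 times under the 3 alternatives. When gaps of up to 500 bp were joined, shoot-apex-only regions fell on each chromosome. They numbered 683 instead of 983 on 3A, 821 instead of 1133 on 3B and 673 instead of 1010 on 3D. Only the fall on 3D passed 1.5 times, and only just. Gaps of at least 2 Mb numbered 25 (leaves), 45 (roots), 32 (shoot apices), 48 (buds) and 12 (4 lists together). Runs of 4 or more numbered 54 (leaves), 104 (roots), 12 (shoot apices) and 42 (buds), and runs of 6 or more 11, 21, 2 and 5. Within 50 kb there were 18 root, 2 shoot apex and 7 bud runs, so that leaf runs (21) came first; fewer regions qualify by construction. At 1.5 times the next list 149 windows were led, and 12 of 2 Mb at 2 times. Cutting each list to its 119387 widest peaks left the numbers of gaps, runs and region classes within 1.5 times. With 20 bins Pearson's r between homoeologues was 0.944 to 0.986 and with 100 bins 0.727 to 0.895.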
